A study of Mus musculus with 22 samples.

Results

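The 38 genes described here encode proteins of the cell cycle, from the helicase that opens replication origins to the motors of the mitotic spindle. They were listed by name, and all 38 were found once each among the 34585 entries of the count tables. They were measured by RNA sequencing of 3 organs, the thymus, the cerebrum and the cerebellum, from Tol mice and their wild-type littermates (WT), all of the C57BL/6 strain. Tol mice were heterozygous for the Tol transgene, a chimeric reading frame that joins scrambled pieces of Cre recombinase, firefly luciferase and 6 fluorescent proteins with a viral T cell epitope, placed at Col1a1 by cassette exchange in embryonic stem cells and driven by the ubiquitous CAG promoter. WT littermates lacked the transgene, and the labels name no treatment of either group. The study's methods give an age range in the weeks of young adulthood. Thymus and cerebrum were each represented by 4 libraries per genotype and cerebellum by 2 Tol and 4 WT libraries, while the study states 4 mice per genotype, and other cerebellum libraries were not analysed here. Whether libraries of different organs came from the same mouse is not stated. The libraries are whole tissue, so fewer cells of a type and less RNA per cell cannot be told apart.

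A dividing cell first licenses its origins of replication in G1, when Cdc6 helps to load the ring of Mcm2 to Mcm7 onto DNA. E2F transcription factors, released from the retinoblastoma protein by cyclin D and cyclin E kinases, then raise the genes for DNA synthesis, and Cdc45 and the Mcm ring open the DNA in S phase. In G2 and mitosis the MuvB complex with B-Myb (Mybl2) and Foxm1 raises the genes for cyclin B, the Aurora and Polo kinases and the spindle, which the complex with p130 and E2f4 otherwise keeps low in resting cells. The young adult thymus holds many dividing precursors of T cells, mostly cortical thymocytes and their double negative forerunners, while most neurons of the adult brain have left the cycle and division is found in oligodendrocyte precursors, microglia, endothelium and small neurogenic niches.

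Total estimated counts were 14543698 to 34776973 per library. Levels are given as CPM, counts per 1000000 after TMM scaling over all 22 libraries. Markers of thymocytes were high in every thymus. In the brain the 9 thymocyte markers were at 0.0176% (Cd8b1, Tol cerebellum) to 1.85% (Ptcra, Tol cerebrum) of their thymus level, with Ptcra the highest in every group. The 38 members had medians of 1.38% to 1.63% over the 4 brain groups. Above Ptcra's share lay 22 members in WT cerebrum, 20 in WT cerebellum, 17 in Tol cerebrum and 29 in Tol cerebellum, and the others lay below it. Cd4 was at 1.25, 0.643, 41.1 and 1.38 CPM in the 4 WT cerebra and at 2.91, 1.87, 2.02 and 19.1 CPM in the 4 Tol cerebra, with WT 3 and Tol 4 above the others, while Cd8a stayed at 0.49 to 1.36 CPM in every brain library. A single cerebellum library went against its label. In the library labelled Tol cerebellum 2, the 5 markers of cerebellar neurons summed to 153.9 CPM, near the 133.7 to 213.6 CPM of the cerebra, against 4745 CPM in Tol cerebellum 1 and 1829 to 4363 CPM in WT cerebella. Its markers of cerebral excitatory neurons were low as well, at 24.2 CPM in sum against 1405 to 1892 CPM in the cerebra. WT cerebellum 2, at 1829 CPM, had the lowest sum of cerebellar markers in its group, and its markers of oligodendrocyte precursors summed to 275 CPM against 107 to 118 CPM in the other 3. Values without these libraries stand beside the counts of members called in the cerebellum.

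The first question was how far the cycling thymus stood above the brain. All 38 members were higher in WT thymus than in WT cerebrum, with a median log2 fold change of 5.96, and all 38 were higher than in WT cerebellum, with a median of 6.09 (edgeR quasi-likelihood test, adjusted p under 0.05 for each). Of all 17413 genes tested, 43.4% were called higher in thymus than in cerebrum and 41.8% higher than in cerebellum, and the medians over all genes were 0.06 and -0.01. With each of the WT libraries left out in turn, all 38 were still called against cerebellum, with medians of 6.06 to 6.27. Every thymus library, of either genotype, was above every one of the 14 brain libraries for all 38 members, as it was for 32.9% of the same 17413 genes. In CPM the 38 genes together made up 5352 to 7459 in WT thymus, 170.0 to 188.7 in WT cerebrum and 193.4 to 214.8 in WT cerebellum. Both comparisons use the same WT thymi.

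**Figure D1:**
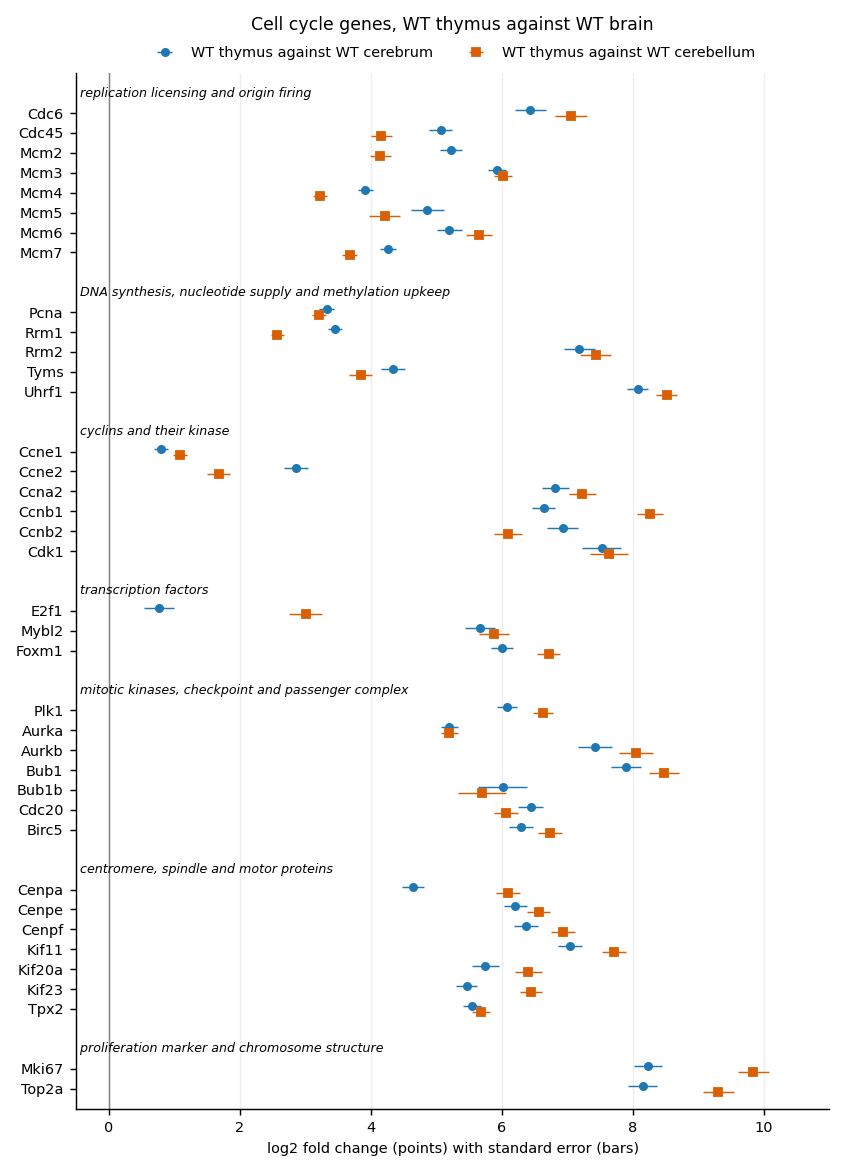
Log2 fold changes of the 38 cell cycle genes between WT thymus and WT cerebrum (blue circles) and between WT thymus and WT cerebellum (orange squares), grouped by role. Bars are standard errors from edgeR with 4 libraries per group. All points lie right of 0, from 0.77 for E2f1 against cerebrum to 9.84 for Mki67 against cerebellum.

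Mki67, whose protein Ki-67 coats mitotic chromosomes and is the usual marker of dividing cells, and Top2a, the topoisomerase that untangles sister chromatids, differed most. Mki67 was at 861, 673, 854 and 699.5 CPM in the 4 WT thymi, at 3.25, 2.38, 1.56 and 3.18 CPM in the WT cerebra and at 0.965, 0.872, 0.965 and 0.611 CPM in the WT cerebella. The thymi lay far above both brain regions, and within the brain every WT cerebrum was above every WT cerebellum. Its log2 fold change was 8.23 ± 0.22 (SE) against cerebrum and 9.84 ± 0.24 against cerebellum (edgeR adjusted p = 2.32e-12 and 1.29e-12). Top2a was at 826, 656, 956 and 796 CPM in WT thymus, 2.82, 3.34, 1.68 and 3.72 CPM in WT cerebrum and 1.34, 1.44, 1.08 and 1.35 CPM in WT cerebellum, with log2 fold changes of 8.15 and 9.31. Mki67 in WT cerebellum was the lowest of all members relative to thymus, at 0.111% of its thymus level, below the thymocyte markers Rag2 (0.154%) and Ptcra (1.32%) in that region and above the other 7. The part of thymus RNA in such low levels was not tested.

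Genes of replication licensing and origin firing, Cdc6, Cdc45 and Mcm2 to Mcm7, had a median log2 fold change of 5.13 against cerebrum and 4.18 against cerebellum. Cdc6, the loader of the Mcm ring, changed most of the 8, from 53.3, 42.6, 62.8 and 50.2 CPM in WT thymus to 0.651, 0.579, 0.3003 and 0.899 CPM in WT cerebrum and 0.294, 0.305, 0.463 and 0.524 CPM in WT cerebellum, which are 5 to 15 counts per brain library. Mcm4 changed least, with 156, 149, 202 and 169 CPM in thymus, 12.04, 9.91, 12.6 and 10.97 CPM in cerebrum and 19.01, 18.1, 18.4 and 18.5 CPM in cerebellum, and log2 fold changes of 3.92 and 3.22. Mcm2 was at 176, 163, 220.5 and 186 CPM in WT thymus, 5.04, 6.82, 4.02 and 4.44 CPM in WT cerebrum and 9.69, 9.33, 11.9 and 12.1 CPM in WT cerebellum. The subunits of 1 ring thus had unequal changes, from 3.92 for Mcm4 to 5.92 for Mcm3 against cerebrum on the log2 scale.

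Among the genes of DNA synthesis, Uhrf1, which carries DNA methylation through replication, had log2 fold changes of 8.08 against cerebrum and 8.52 against cerebellum. Its levels were 337, 279.7, 399.7 and 328 CPM in WT thymus, 1.52, 1.35, 0.961 and 1.199 CPM in WT cerebrum and 0.797, 1.09, 0.888 and 0.9603 CPM in WT cerebellum. Pcna, the sliding clamp of DNA polymerases, which also serves repair, was at 354, 306, 433 and 362 CPM in WT thymus, 35.5, 40.8, 34.8 and 36.7 CPM in WT cerebrum and 37.4, 38.6, 40.5 and 44.4 CPM in WT cerebellum. Its change was much smaller, 10.01-fold and 9.25-fold on the linear scale. The subunits of ribonucleotide reductase, the enzyme that makes deoxynucleotides, parted in the same way. The small subunit Rrm2 had log2 fold changes of 7.18 and 7.43, and the large subunit Rrm1 had 3.46 and 2.57. Rrm1 was at 20.3, 21.03, 20.5 and 22.5 CPM in WT cerebra and 40.5, 36.9, 40.5 and 39.2 CPM in WT cerebella, against 227, 185, 271 and 230.2 CPM in thymi.

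Of the cyclins, those of S phase and mitosis changed most. Cdk1, the kinase that drives entry into mitosis, was at 85.9, 69.5, 99.3 and 83.8 CPM in WT thymus, 0.3795, 0.708, 0.1802 and 0.599 CPM in WT cerebrum and 0.252, 0.305, 0.348 and 0.829 CPM in WT cerebellum, with 3 to 19 counts in each of these 8 brain libraries. Its log2 fold changes were 7.52 ± 0.30 (SE) and 7.63 ± 0.29. Its partner Ccnb1 was at 113, 93.3, 135 and 116 CPM in WT thymus, 1.08, 1.42, 1.08 and 1.08 CPM in WT cerebrum and 0.2098, 0.392, 0.541 and 0.349 CPM in WT cerebellum, and changed more against cerebellum (8.26) than against cerebrum (6.64) on the log2 scale. The cyclins E, partners of Cdk2 at the start of S phase, changed least. Ccne1 was at 21.3, 17.6, 23.5 and 19.9 CPM in WT thymus, 10.8, 13.5, 11.6 and 12.2 CPM in WT cerebrum and 10.6, 10.4, 8.998 and 9.73 CPM in WT cerebellum, a 1.74-fold and a 2.12-fold difference (edgeR adjusted p = 1.64e-05 and 9.12e-07). The groups did not overlap for this gene, but its highest cerebrum library lay within 5 CPM of its lowest thymus library.

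E2f1, an activator of the S phase genes, changed least of all members against cerebrum. It was at 26.5, 21.1, 30.1 and 25.3 CPM in WT thymus, at 13.7, 14.99, 18.4 and 14.3 CPM in WT cerebrum and at 3.74, 3.92, 4.02 and 1.44 CPM in WT cerebellum. The cerebrum thus held 59.7% of the thymus level and the cerebellum far less. The log2 fold change was 0.77 ± 0.23 (SE) against cerebrum and 3.00 ± 0.25 against cerebellum (edgeR adjusted p = 0.00782 and 1.60e-07). Mybl2 and Foxm1, the factors of the G2 and mitosis genes, had log2 fold changes of 5.67 and 6.00 against cerebrum and of 5.88 and 6.71 against cerebellum. Foxm1 was at 122, 94.4, 127 and 103 CPM in WT thymi, 1.898, 1.74, 1.74 and 1.68 CPM in WT cerebra and 0.965, 1.61, 0.811 and 0.9603 CPM in WT cerebella.

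The mitotic kinases, checkpoint and passenger genes had a median log2 fold change of 6.30 against cerebrum and 6.63 against cerebellum. Bub1, a kinase of the spindle checkpoint, changed most, from 67.7, 56.1, 79.9 and 66.5 CPM in WT thymus to 0.163, 0.322, 0.3003 and 0.3597 CPM in WT cerebrum and 0.0839, 0.262, 0.2703 and 0.131 CPM in WT cerebellum, the last from 2 to 7 counts. Aurka, the Aurora kinase of the spindle poles, changed least, with 56.6, 45.3, 59.05 and 50.2 CPM in thymi, 1.46, 1.54, 1.44 and 1.38 CPM in cerebra and 1.18, 1.53, 1.58 and 1.57 CPM in cerebella, and log2 fold changes of 5.20 and 5.20. Aurkb and Birc5, which sit together in the chromosomal passenger complex, had 7.42 and 6.30 against cerebrum. Plk1, Bub1b and Cdc20 had 6.07, 6.01 and 6.44.

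Genes of the centromere and spindle had medians of 5.75 and 6.45. Kif11, the motor that pushes the spindle poles apart, changed most, with 295, 245, 337 and 287 CPM in WT thymi, 2.71, 2.701, 1.802 and 1.74 CPM in WT cerebra and 1.18, 1.74, 1.197 and 1.57 CPM in WT cerebella. Cenpa, the histone that marks centromeres, changed least against cerebrum, with 84.5, 70.3, 91.6 and 75.4 CPM in thymi and 3.42, 3.79, 2.52 and 3.36 CPM in cerebra (4.64 ± 0.17, SE, on the log2 scale), and was at 1.05, 1.66, 0.888 and 1.22 CPM in cerebella. Tpx2, which activates Aurka on the spindle, changed least against cerebellum (5.68), with 155, 127, 177 and 154 CPM in thymi and 3.36, 2.92, 3.09 and 2.84 CPM in cerebella.

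**Figure D2:**
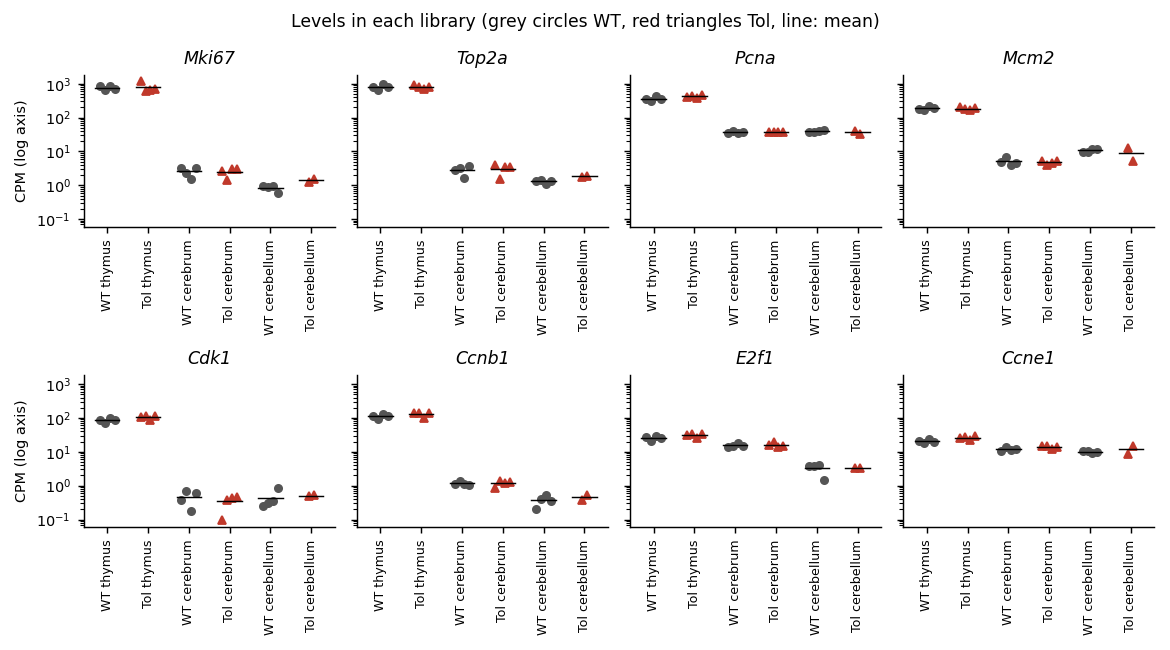
CPM on a log axis of 8 cell cycle genes in each of the 22 libraries. Grey circles are WT and red triangles Tol libraries, and a line marks each group's mean. Mki67, Top2a, Cdk1 and Ccnb1 fall from thymus to brain by the most, Pcna and Mcm2 by less, and for E2f1 and Ccne1 the cerebrum lies just under the thymus.

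Tol libraries, which entered none of these fits, gave the same comparison separately. All 38 members were higher in Tol thymus than in Tol cerebrum (median log2 fold change 6.05) and than in Tol cerebellum (median 6.17; edgeR adjusted p under 0.05 for each), against 42.5% and 39.2% of the 18377 genes tested. The log2 fold changes of the 38 genes against cerebrum correlated between the genotypes with a Pearson's r of 0.986, a description across genes, which are not independent. Their median absolute difference was 0.17, and the largest was 0.93 for Cdc20. Without Tol cerebellum 2, all 38 were still called higher in thymus than in cerebellum.

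Of the licensing genes in Tol, Cdc6 again changed most and Mcm4 least. Cdc6 was at 65.3, 62.6, 51.1 and 62.5 CPM in Tol thymi, 0.194, 0.535, 0.543 and 0.234 CPM in Tol cerebra and 0.289 and 0.363 CPM in Tol cerebella. Mcm4 was at 189, 179, 154 and 169 CPM, 12.2, 9.26, 11.1 and 10.8 CPM and 22.3 and 13.2 CPM in the same order of organs. Uhrf1 and Rrm1 were the extremes of DNA synthesis. Uhrf1 was at 381, 355, 299 and 373 CPM in Tol thymi, 1.26, 0.535, 0.937 and 1.25 CPM in Tol cerebra and 0.907 and 1.25 CPM in Tol cerebella, and Rrm1 was at 268, 259, 210.4 and 251 CPM in Tol thymi and 39.04 and 33.3 CPM in Tol cerebella. Of the transcription factors Foxm1 changed most, with 131, 105, 91.2 and 104 CPM in Tol thymi, 2.38, 1.498, 1.87 and 1.95 CPM in Tol cerebra and 1.11 and 1.57 CPM in Tol cerebella. E2f1 changed least, with 31.6, 33.4, 25.5 and 33.1 CPM, 16.2, 19.3, 13.9 and 15.03 CPM and 3.22 and 3.35 CPM, and its cerebra lay nearer to its thymi than its cerebella did.

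Of the mitotic kinases and checkpoint genes in Tol, Bub1 changed most and Aurka least against cerebrum. Bub1 was at 74.7, 64.5, 57.04 and 70.4 CPM in Tol thymi and 0.243, 0.214, 0.0987 and 0.312 CPM in Tol cerebra, and Aurka was at 56.2, 66.5, 44.3 and 61.6 CPM and 1.31, 1.77, 1.63 and 2.26 CPM. Against cerebellum the extremes were Aurkb, the Aurora kinase of the passenger complex, and Bub1b, a checkpoint protein at the kinetochore. Aurkb was at 75.9, 76.5, 55.8 and 76.99 CPM in Tol thymi and 0 and 0.202 CPM in Tol cerebella, and Bub1b was at 174, 149.9, 139.8 and 154 CPM and 2.97 and 4.52 CPM. Of the spindle genes Kif11 changed most, with 364, 299, 272 and 288 CPM in Tol thymi, 2.23, 1.87, 2.86 and 2.73 CPM in Tol cerebra and 1.48 and 1.65 CPM in Tol cerebella. Kif23, a motor of the central spindle, changed least against cerebrum and Tpx2 least against cerebellum. Kif23 was at 102, 79.5, 71.9 and 79.5 CPM in Tol thymi, 2.43, 2.35, 2.17 and 2.103 CPM in Tol cerebra and 0.618 and 1.01 CPM in Tol cerebella, and Tpx2 was at 187, 162, 136 and 163 CPM in Tol thymi and 3.25, 3.48, 3.897 and 2.804 CPM in Tol cerebra.

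Levels of different genes were compared per kb of exonic length. In WT thymus Pcna was highest with 152 CPM per kb, then Rrm2 (94.8), Top2a (89.7), Uhrf1 (78.9) and Mki67 (76.7), and Ccne1 (7.73), E2f1 (8.17) and Mybl2 (9.05) were lowest. In WT cerebrum the order was another, with Pcna (15.4 CPM per kb), E2f1 (4.87), Ccne1 (4.52) and Mcm4 (3.17) at the top. In WT cerebellum it was Pcna (16.8), Mcm4 (5.16), Ccne2 (3.899) and Mcm7 (3.83). E2f1 and Ccne1 thus stood at places 37 and 38 of 38 in thymus and 2 and 3 in cerebrum. With the length of the longest transcript instead, Pcna was at 239.8 CPM per kb in thymus, Top2a at 155 and Rrm2 at 119.8, and E2f1 and Ccne1 again held the last 2 places.

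Since the members moved together between thymus and brain, their promoters were searched for the letters of elements known from cell cycle genes. Windows from 250 bases before to 50 bases after the start were taken from RefSeq (GRCm38.p6) for 31 of the 38 genes, with no window for Mcm4, Aurkb, Ccne2, Ccna2, Foxm1, Kif20a and Tpx2. Searched on both strands were the E2F letters TTTCGCGC, TTTGGCGC and TTCCCGCC, the cell cycle homology region (CHR) letters TTTGAA and TTCGAA, to which MuvB binds, and CCAAT, the element of the factor NF-Y. CHR letters stood in 11 of 13 windows of the 3 mitotic roles and in 3 of 12 windows of the 2 replication roles, against 19.4% of all 27025 windows. E2F letters stood in 0 of 13 and 6 of 12, against 3.04% of all windows, and CCAAT in 12 of 13 and 10 of 12, against 37.9%. Cdc6, Tyms, Ccne1, E2f1, Mybl2 and Birc5 held none of these letters. With only the 250 bases before the start, CHR letters stood in 5 of the 13 mitotic windows, since several lie just after the start. A match describes letters, and no match says only that these letters are not in this window.

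Shown are the windows of Mcm3 and Mcm6 with E2F letters, of Ccnb2 and Top2a with CHR letters, of Cdk1 with both, and of Ccne1, the cyclin that changed least, with none. All are given 5′ to 3′ on the gene's strand, in lower case, with every searched motif on either strand in capitals.
Mcm3, chr1:20820263-20820562, minus strand: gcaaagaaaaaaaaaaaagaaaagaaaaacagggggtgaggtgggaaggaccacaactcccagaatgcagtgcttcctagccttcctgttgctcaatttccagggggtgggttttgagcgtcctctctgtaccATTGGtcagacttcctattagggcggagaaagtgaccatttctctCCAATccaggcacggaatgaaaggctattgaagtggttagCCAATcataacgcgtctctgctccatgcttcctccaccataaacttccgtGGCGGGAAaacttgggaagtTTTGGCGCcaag
Mcm6, chr1:128359656-128359955, minus strand: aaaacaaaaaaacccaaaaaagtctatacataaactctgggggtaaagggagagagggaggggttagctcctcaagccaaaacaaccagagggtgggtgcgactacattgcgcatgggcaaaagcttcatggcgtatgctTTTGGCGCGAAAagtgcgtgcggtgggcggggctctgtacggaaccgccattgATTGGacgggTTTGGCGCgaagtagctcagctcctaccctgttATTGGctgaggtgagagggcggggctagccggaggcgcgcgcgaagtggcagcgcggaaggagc
Ccnb2, chr9:70421505-70421804, minus strand: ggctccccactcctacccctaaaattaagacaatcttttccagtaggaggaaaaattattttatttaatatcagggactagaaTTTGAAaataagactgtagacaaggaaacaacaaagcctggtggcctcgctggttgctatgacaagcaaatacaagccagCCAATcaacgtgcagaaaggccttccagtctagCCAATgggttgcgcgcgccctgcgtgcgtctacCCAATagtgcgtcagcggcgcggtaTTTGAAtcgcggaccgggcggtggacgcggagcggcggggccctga
Top2a, chr11:99024140-99024439, minus strand: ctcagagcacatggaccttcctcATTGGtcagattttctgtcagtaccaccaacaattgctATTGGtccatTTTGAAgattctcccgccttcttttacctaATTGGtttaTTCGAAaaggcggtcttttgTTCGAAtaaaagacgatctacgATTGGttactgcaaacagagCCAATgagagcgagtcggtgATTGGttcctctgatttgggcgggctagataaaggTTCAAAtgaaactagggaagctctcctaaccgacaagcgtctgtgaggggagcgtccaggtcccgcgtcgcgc
Cdk1, chr10:69352863-69353162, minus strand: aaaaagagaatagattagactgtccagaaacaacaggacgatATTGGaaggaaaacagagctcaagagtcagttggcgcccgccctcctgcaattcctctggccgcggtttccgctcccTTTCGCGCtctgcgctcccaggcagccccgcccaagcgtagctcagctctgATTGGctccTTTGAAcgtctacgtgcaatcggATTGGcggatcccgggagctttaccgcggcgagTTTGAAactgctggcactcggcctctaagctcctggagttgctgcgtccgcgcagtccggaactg
Ccne1, chr7:38107441-38107740, minus strand: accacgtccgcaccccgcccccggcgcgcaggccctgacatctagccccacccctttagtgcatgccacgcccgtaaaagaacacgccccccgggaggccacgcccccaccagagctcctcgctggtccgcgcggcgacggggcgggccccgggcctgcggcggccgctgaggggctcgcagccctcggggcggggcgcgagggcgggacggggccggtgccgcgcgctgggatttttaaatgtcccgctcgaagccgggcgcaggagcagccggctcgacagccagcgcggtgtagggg

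In Mcm3 the E2F letters lie at 18 and 38 bases from the start, within the transcribed part of the window, and in Mcm6 they begin 110, 106 and 47 bases before it. Ccnb2 has CCAAT at 87, 54 and 21 bases before the start, each 33 bases apart, followed by a CHR match 4 bases after it. Cdk1 has an E2F match beginning 131 bases before the start and CHR matches beginning 71 and 15 bases before it. Top2a holds 4 CHR and 6 CCAAT matches. The log2 fold changes between WT thymus and cerebrum were 5.92 for Mcm3, 5.20 for Mcm6, 6.93 for Ccnb2, 7.52 for Cdk1, 8.15 for Top2a and 0.80 for Ccne1. The other members without any of these letters had 6.43 (Cdc6), 6.30 (Birc5), 5.67 (Mybl2), 4.33 (Tyms) and 0.77 (E2f1). Whether letters go with the size of the change was not tested.

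A further 102 cell cycle genes, listed by role, were read from the same fit. Of 101 tested, 91 were higher and 6 lower in WT thymus than in WT cerebrum, with a median log2 fold change of 3.77 (edgeR adjusted p under 0.05), and 91 and 6 in the comparison with WT cerebellum, with a median of 3.45. Of all 17413 genes, 43.4% and 41.8% were called higher in these comparisons, and 7125 and 7261 genes lower. All 30 other replication genes were higher than in cerebrum, led by Chaf1b (5.85), a histone loader, and Mcm10 (5.70). Of 42 other mitotic genes 39 were higher, led by Cdca5 (7.41) and Ect2 (7.09), and Pttg1, the securin that guards sister chromatids, was lower (-0.61). Of 17 pocket protein, E2F and MuvB genes 13 were higher, led by E2f2 (7.66) and E2f8 (7.29). E2f5 (-0.82) and Lin52 (-0.64) fell the most of the 3 that were lower. E2f2, like E2f1 an activator, thus differed far more between thymus and cerebrum than E2f1 did (0.77). Cdk2 (5.40) and Ccnd3 (5.02) led the G1 genes, and Ccnd1 was lower (-0.99). Of 6 inhibitors of the kinases 4 were higher, led by Cdkn2c (4.64) and Cdkn1b (2.07), and Cdkn1a, the target of p53, was lower (-0.97).

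Within the brain the members were called in both directions. In WT cerebellum 9 members were higher and 12 lower than in WT cerebrum (edgeR adjusted p under 0.05), against 26.4% and 24.6% of all 17413 genes. The 9 were Cdc45, Mcm2, Mcm4, Mcm5, Mcm7, Rrm1, Tyms, Ccne2 and Ccnb2, of which 7 belong to replication and nucleotide supply. The 12 were E2f1, Ccnb1, Ccne1, Foxm1, Plk1, Cenpa, Cenpf, Kif11, Kif20a, Kif23, Mki67 and Top2a. With all WT libraries, no member of the 2 replication roles was called lower and none of the 3 mitotic roles was called higher. This split was not tested. Every WT cerebellum was above every WT cerebrum for 6 members, against 22.5% of all genes, and below for 9, against 21.4%. With scaling on total counts alone, which moved the median of all genes from 0.03 to 0.18, 9 members were higher and 8 lower, and all genes split into 6301 higher and 3238 lower in place of 4603 and 4289. The shares of members called, 9 and 12 of 38, are near those of all genes. Without WT cerebellum 2 there were 9 higher and 9 lower, against 27.2% and 25.9% of genes tested. The split by role did not hold in that fit. Mcm6, of a replication role, was called lower (log2 fold change -0.57, edgeR adjusted p = 0.0259). Cdc20, of a mitotic role, was called higher (0.54, edgeR adjusted p = 0.0368).

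E2f1 changed most, with the levels given above, from 13.7 to 18.4 CPM in WT cerebra to 1.44 to 4.02 CPM in WT cerebella, a log2 fold change of -2.23 ± 0.25 (SE, edgeR adjusted p = 1.51e-05). WT cerebellum 4 was lowest, and the groups lay far apart. Ccnb1 had -1.62 ± 0.26 (edgeR adjusted p = 2.35e-04), from 5 to 14 counts per cerebellum and 18 to 22 per cerebrum. Mki67 had -1.61 ± 0.24 and Cenpa -1.45 ± 0.19, both without overlap between the regions. Top2a had -1.16 ± 0.23, with 1 cerebrum library, WT 3, at 1.68 CPM close to the highest cerebellum at 1.44 CPM. In the other direction, Ccne2 was at 16.7, 8.76, 14.9 and 14.1 CPM in WT cerebella against 6.18, 5.02, 6.49 and 6.23 CPM in WT cerebra (1.18 ± 0.18, edgeR adjusted p = 2.01e-04), and WT cerebellum 2, with the fewest cerebellar markers, was the lowest cerebellum. Mcm2 had 1.08 ± 0.16 and Rrm1 0.89 ± 0.10 (edgeR adjusted p = 1.49e-04 and 1.51e-05), both with every WT cerebellum above every WT cerebrum. Aurkb (-0.62), Cdc6 (-0.62), Uhrf1 (-0.44), Mybl2 (-0.21), Tpx2 (-0.14) and Cdc20 (0.38) did not pass. Mybl2 was at 0.868, 1.16, 0.4204 and 0.899 CPM in WT cerebra and 0.839, 0.654, 0.541 and 0.873 CPM in WT cerebella, and Aurkb was at 0.271, 0.643, 0.1802 and 0.4796 CPM and 0.168, 0.174, 0.348 and 0.306 CPM, levels that overlap in both genes. Cdc20 was at 0.976, 1.16, 0.901 and 1.08 CPM in WT cerebra and 1.13, 0.872, 1.58 and 1.79 CPM in WT cerebella, and Tpx2 at 3.04, 4.12, 3.36 and 2.88 CPM in WT cerebra.

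**Figure D3:**
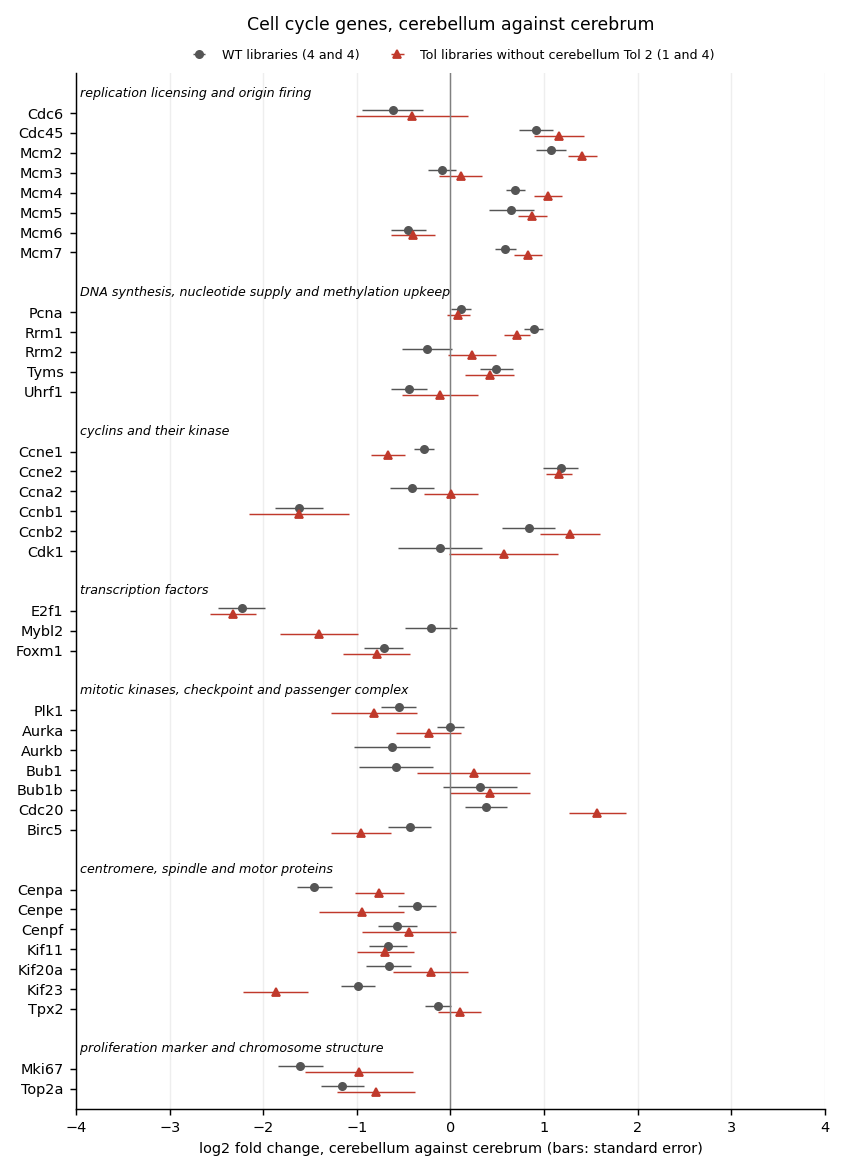
Log2 fold changes of the cell cycle genes between cerebellum and cerebrum, by role, in WT libraries (grey circles, 4 and 4) and in Tol libraries without Tol cerebellum 2 (red triangles, 1 and 4). Bars are standard errors from edgeR, and Aurkb, with 0 counts in Tol cerebellum 1, has no Tol point. Mcm2, Mcm4, Cdc45, Rrm1 and Ccne2 lie right of 0 in both genotypes, and E2f1, Ccnb1, Cenpa and Kif23 left of it.

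Tol libraries were again separate from the WT ones. With both Tol cerebella, 5 members were higher and 4 lower in cerebellum, 9 of 38 in all against 23.4% of all 18377 genes, with 11.4% of genes lower (edgeR adjusted p under 0.05). Mcm2, Mcm4, Mcm7 and Rrm1 were higher in both genotypes, 4 of the 9 called in WT and 4 of the 5 called in Tol, and Ccnb1, Cenpa, E2f1 and Kif23 were lower in both, 4 of the 12 and all 4. The remaining member called higher in Tol was Cdc20, of a mitotic role. Its log2 fold change was the highest of the 38 (1.32, edgeR adjusted p = 0.00372), and 1.57 without Tol cerebellum 2. Without the library labelled Tol cerebellum 2, which leaves 1 Tol cerebellum whose spread is taken from the other groups, 9 were higher and 7 lower, against 18.4% and 18.4% of genes. Then 8 of the 9 called higher in WT were called higher in Tol, and 5 of the 12 called lower. Tol cerebellum 2 had Ccne2 at 7.58 CPM against 18.1 CPM in Tol cerebellum 1 and Mcm2 at 5.28 CPM against 12.5 CPM, values within the range of the Tol cerebra. Its E2f1, at 3.35 CPM, was that of the cerebella. Ccnb2, a cyclin of mitosis, was at 0.388, 0.535, 0.691 and 0.467 CPM in Tol cerebra and 1.28 and 0.686 CPM in Tol cerebella, against 0.922, 0.708, 0.4804 and 0.779 CPM in WT cerebra. Mybl2 was at 1.31, 1.02, 0.789 and 0.779 CPM in Tol cerebra and 0.371 and 1.05 CPM in Tol cerebella. Aurkb was at 0.485, 0.482, 0.148 and 0.234 CPM in Tol cerebra, and Cdc20 was at 1.86 and 1.25 CPM in Tol cerebella.

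Cell type markers moved with this contrast. In WT cerebella the oligodendrocyte precursor genes Pdgfra and Cspg4 were lower than in cerebra (log2 fold changes -1.06 and -0.76), and Olig1 and Olig2 did not pass (-0.25 and -0.21). Among genes listed as markers of progenitors and neuroblasts, Dcx and Sox11 were lower (-2.22 and -1.49), Eomes was higher (6.05) and Nes did not pass (-0.29). Which cells of the cerebellum held Eomes was not tested. All 4 microglia genes were lower, with log2 fold changes from -1.86 to -1.63. The oligodendrocyte precursor markers had summed levels between 107 and 275 CPM in WT cerebella and between 203 and 230.5 CPM in WT cerebra. The microglia markers had summed levels between 58.3 and 100.8 CPM in WT cerebella and between 199 and 267 CPM in WT cerebra. None of these markers was at 0, and their part in the members' differences was not tested. Of the 102 further cell cycle genes 101 were tested, and 29 were higher and 19 lower in WT cerebellum, against 26.4% and 24.6% of all genes. Fbxo5 (1.75), Cdc25a (1.64), Rbl1 (1.34), Prim1 (1.30), Cdkn1b (1.30), Pold1 (1.29) and Lin9 (1.11) were among the largest log2 fold changes per list above 0, and Melk (-3.58), Ccnd2 (-2.40), Pbk (-1.86), E2f2 (-1.36) and Cdk6 (-1.30) among those below 0.

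The next question was whether the members differed between Tol and WT thymus. None of the 38 passed in edgeR's quasi-likelihood test at adjusted p under 0.05, against 0.0985% of 16248 genes. At an unadjusted p under 0.05 there were 7, all higher in Tol, against 13.3% of all genes higher and 11.1% lower, and DESeq2 called 4 higher at adjusted p under 0.05, against 4.09% of genes. Of the 38 log2 fold changes 30 were above 0, as were 51.4% of those of all genes, and their median was 0.11, or 1.08-fold. The 7 were Birc5, Ccnb2, Cenpa, Ccne1, Cdk1, E2f1 and Cdc20, and DESeq2 called Birc5, Ccnb2, Cenpa and Ccne1.

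Birc5, the survivin of the passenger complex, had the lowest p. It was at 109, 119.6, 101 and 122 CPM in the 4 Tol thymi and 86.8, 71.1, 95.9 and 83.7 CPM in the 4 WT thymi, so that every Tol library was above every WT library. This was the one member of 38 whose groups did not overlap, as for 6.11% of all genes in that direction. Its log2 fold change was 0.42 ± 0.10 (SE, edgeR adjusted p = 0.0805, DESeq2 adjusted p = 0.00337), and a two-sided exact permutation test gave p = 0.0286, the smallest that 4 against 4 allow. Ccnb2 was at 114, 119, 94.4 and 116 CPM in Tol and 90.9, 73.5, 98.9 and 87.8 CPM in WT thymi (0.34 ± 0.10, edgeR adjusted p = 0.0972). Cenpa was at 102, 106, 85.3 and 108 CPM in Tol and 84.5, 70.3, 91.6 and 75.4 CPM in WT thymi (0.32 ± 0.10, edgeR adjusted p = 0.107). For both genes only Tol 3 lay within the WT range. Ccne1 was at 25.7, 26.8, 22.1 and 28.8 CPM in Tol and 21.3, 17.6, 23.5 and 19.9 CPM in WT thymi (0.33 ± 0.11, edgeR adjusted p = 0.113), and Cdk1 at 107, 115, 88.4 and 114 CPM and 85.9, 69.5, 99.3 and 83.8 CPM (0.33 ± 0.11, edgeR adjusted p = 0.126). Exact permutation tests gave p = 0.0571 for each of these 4.

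The commonly used markers of division did not pass the test. Mki67 was at 1168, 618, 671 and 697 CPM in Tol thymi, with Tol 1 far above the others, and had a log2 fold change of 0.03 ± 0.18 (SE, edgeR adjusted p = 0.934), which was -0.21 without Tol 1. Top2a was at 940.2, 782, 686 and 797 CPM in Tol thymi (-0.01 ± 0.12), Pcna at 409, 448, 380.0 and 457 CPM (0.22 ± 0.11), Mcm2 at 199.9, 185, 165 and 188 CPM (-0.01 ± 0.10) and Ccnb1 at 142, 143, 97.6 and 136 CPM (0.18 ± 0.13). By role, the 6 genes of the cyclins and their kinase had the highest median log2 fold change, 0.30, and the 2 of the proliferation markers the lowest, 0.01. The median was 0.11 for licensing, 0.14 for DNA synthesis and 0.07 for the centromere and spindle. None of the 102 further cell cycle genes passed in edgeR. At an unadjusted p under 0.05 there were 30 higher and 3 lower of these 102, against the 13.3% and 11.1% of all genes, and DESeq2 called 11 higher and 3 lower at adjusted p under 0.05, against 4.09% of genes higher.

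In each genotype the same thymus library was lowest for nearly all members. WT 2 was the lowest WT library for all 38 members and the lowest of all 8 thymi for 33, and WT 3 was the highest WT library for 36. Tol 3 was the lowest Tol library for 37. The median deviation of the 38 genes from their mean over the 8 thymi, on the log2(CPM + 1) scale, was 0.17, 0.14, -0.16 and 0.15 in Tol 1 to 4 and -0.06, -0.30, 0.17 and -0.06 in WT 1 to 4. The summed level of the 38 genes was 7748, 6785, 5820.5 and 6906 CPM in Tol and 6504, 5352, 7459 and 6251 CPM in WT thymi, ranges that overlap. WT 2 and WT 3, the WT thymi with the lowest and highest median deviation, differed by more than the median difference between the genotypes. They are the extremes of their group, so a wide gap was likely beforehand and this is no test.

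**Figure D4:**
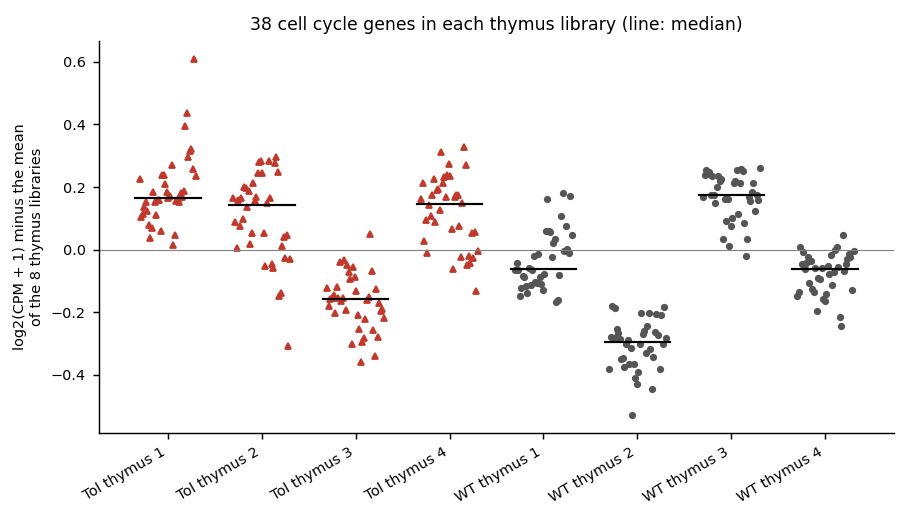
Each point is 1 of the 38 cell cycle genes in 1 thymus library, as its log2(CPM + 1) minus the mean of the 8 thymi, with Tol as red triangles and WT as grey circles. Lines mark the medians. WT 2 and Tol 3 lie below 0 for nearly all genes, and Tol 1, Tol 2, Tol 4 and WT 3 mostly above it.

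The count of positive members therefore rested on single libraries. Without WT 2, 24 of 38 log2 fold changes were above 0 with a median of 0.03, against 51.8% of all genes, and without WT 3 all 38 were, with a median of 0.22, against 52.9%. At an unadjusted p under 0.05 there were 5 and 17 members, against 17.7% and 25.6% of all genes. Without Tol 1 a single member was called, Birc5 (log2 fold change 0.45, edgeR adjusted p = 0.0171), while 33.9% of all genes had an unadjusted p under 0.05 and 1589 genes passed the adjusted p as higher and 1389 as lower, in place of 9 and 7 with all libraries. With Tol 1 left out, 25 of the 38 members were above 0, against 52.1% of all genes. Birc5 ranged from 0.35 to 0.51 over all 18 alternative fits.

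**Figure D5:**
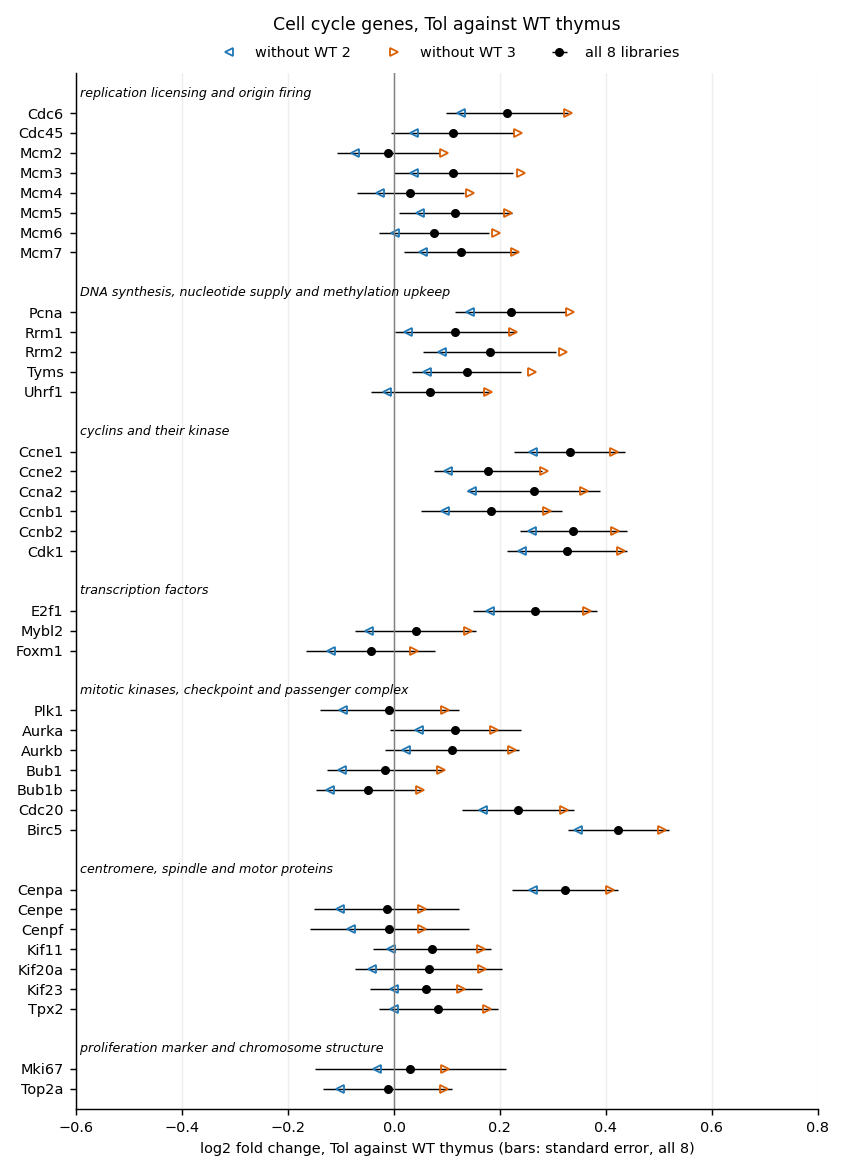
Log2 fold changes of the 38 cell cycle genes between Tol and WT thymus, by role. Black points with standard errors use all 8 libraries, blue triangles leave out WT 2 and orange triangles leave out WT 3. Without WT 3 every gene lies right of 0, and Birc5, Ccnb2, Cenpa, Ccne1 and Cdk1 lie above 0.2 in all 3 fits.

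Transcript length moved with these values. In Tol 1 the 5 members with transcripts of 5 kb or more deviated by a median of 0.40 on the log2(CPM + 1) scale and the other 33 by 0.16, and in Tol 2 by -0.14 and 0.16. Across the 38 members the log2 fold change in thymus had a Spearman's rho of -0.48 with transcript length, a description across genes of the same libraries. Birc5, Ccnb2, Cenpa, Ccne1 and Cdk1 are all among the 33 of 38 members with transcripts under 5 kb. With a trend on length and GC content removed, 35 of 38 members were above 0, against 53.1% of all genes, and none was called. In that fit these 5 had log2 fold changes of 0.42, 0.25, 0.35, 0.27 and 0.38. Without the removal they had 0.42, 0.34, 0.32, 0.33 and 0.33. The 9 thymocyte markers had summed levels of 9825, 8930, 10380.4 and 8274 CPM in Tol thymi and 10401, 10159, 9932 and 11389.8 CPM in WT thymi. Rag1, of the recombinase of T cell receptor genes, carried much of this difference, with a mean of 3305 CPM in Tol and 4493 CPM in WT. Lck (1096 and 1151 CPM), Cd4 (836.9 and 850.2 CPM) and Cd8b1 (817.7 and 830.6 CPM) also had the lower mean in Tol. Cd3e (479 and 450.4 CPM), Cd8a (1313 and 1254 CPM) and Dntt (1284 and 1226 CPM) had the higher mean in Tol. So did Rag2 (194.7 and 189.7 CPM) and Ptcra (26.5 and 25.3 CPM). The summed levels of the 3 double negative markers lay between 95.4 and 119 CPM in Tol and between 109.6 and 120.5 CPM in WT thymi. The 4 adipocyte markers ranged from 20.9 CPM in Tol 1 to 95.8 CPM in WT 1. None of these markers was at 0 in a thymus, and their part in the members' values was not tested.

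In cerebrum 34 members were tested, and Cdc6, Cdk1, Aurkb and Bub1 were too low. None passed at adjusted p under 0.05 in edgeR or DESeq2, and edgeR called 0 of 15596 genes, or 0%. At an unadjusted p under 0.05 edgeR had 2 higher in Tol, Ccne2 and Rrm1, and 2 lower, Cdc20 and Cenpa, against 4.81% and 4.85% of all genes. Ccne2 was at 8.35, 7.28, 8.04 and 8.96 CPM in Tol and 6.18, 5.02, 6.49 and 6.23 CPM in WT cerebra, without overlap (0.45 ± 0.12, SE, edgeR adjusted p = 0.278). Cdc20, the activator of the anaphase promoting complex, was at 0.485, 0.696, 0.74 and 0.545 CPM in Tol and 0.976, 1.16, 0.901 and 1.08 CPM in WT cerebra, without overlap (-0.72 ± 0.23, edgeR adjusted p = 0.359). Of all genes 3.29% had every Tol cerebrum above and 3.16% below every WT cerebrum, and the exact permutation p of both members was 0.0286. Cenpa was at 2.67, 2.14, 2.42 and 1.87 CPM and 3.42, 3.79, 2.52 and 3.36 CPM (-0.51 ± 0.18), Rrm1 at 22.9, 22.1, 24.2 and 26.6 CPM and 20.3, 21.03, 20.5 and 22.5 CPM (0.18 ± 0.08), and Ccne1 at 15.2, 14.7, 12.1 and 13.4 CPM and 10.8, 13.5, 11.6 and 12.2 CPM (0.20 ± 0.10). Cdc20 and Ccne2 overlap exons of Elovl1 and Ints8 on the opposite strand, and whether counting used the strand is not given. Among the markers of division, Mki67 was at 2.62, 1.44, 3.01 and 3.12 CPM, Top2a at 3.98, 1.55, 3.404 and 3.43 CPM, Pcna at 38.3, 38.5, 36.4 and 36.8 CPM, Mcm2 at 5.095, 3.91, 4.64 and 5.297 CPM and Ccnb1 at 0.825, 1.34, 1.18 and 1.32 CPM in Tol cerebra. Cdk1 was at 0.09705, 0.375, 0.444 and 0.467 CPM in these libraries.

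In cerebellum 36 members were tested, with Aurkb and Bub1 too low. None passed in edgeR, where 0% of 16662 genes did, none had an unadjusted p under 0.05, against 3.16% of all genes, and DESeq2 called none. The 2 Tol against 4 WT cerebella allow an exact permutation p of 0.0667 at the least. Mki67 was at 1.28 and 1.53 CPM in the 2 Tol cerebella and Top2a at 1.77 and 1.94 CPM, both above every WT cerebellum, as for 5.20% of all genes. Their log2 fold changes were 0.74 ± 0.31 (SE) and 0.53 ± 0.24 (edgeR adjusted p = 0.957 for both), and 0.58 and 0.44 without the library labelled Tol cerebellum 2. Rrm2 was at 2.02 and 1.86 CPM in Tol against 1.59, 1.92, 1.35 and 1.35 CPM in WT cerebella (0.34 ± 0.26, and 0.38 without Tol cerebellum 2), Tpx2 at 3.63 and 3.35 CPM against 3.36, 2.92, 3.09 and 2.84 CPM (0.22 ± 0.18, and 0.25 without it), and Ccne1 at 8.699 and 14.9 CPM against 10.6, 10.4, 8.998 and 9.73 CPM (0.28 ± 0.24, and -0.19 without Tol cerebellum 2). No member passed with any 1 of the 6 libraries left out. Pcna was at 39.7 and 33.9 CPM, Mcm2 at 12.5 and 5.28 CPM, Cdk1 at 0.495 and 0.524 CPM and Ccnb1 at 0.371 and 0.524 CPM in the Tol cerebella.

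The difference between the genotype effects in thymus and in cerebrum was tested with an interaction term. No member passed in edgeR at adjusted p under 0.05, against 0.107% of 17774 genes, and 4 had an unadjusted p under 0.05, all with a higher effect in thymus, against 9.81% of all genes in that direction. DESeq2 called 1, Cenpa (adjusted p = 0.0146), against 1.61% of genes. The interaction log2 fold change was 0.83 ± 0.19 (SE) for Cenpa, 0.96 ± 0.26 for Cdc20, 0.81 ± 0.30 for Ccnb2 and 0.59 ± 0.23 for Birc5 (edgeR adjusted p = 0.0979, 0.122, 0.2 and 0.208). Cdc20 was at 108, 115, 85.4 and 105 CPM in Tol and 84.5, 76.1, 101 and 91.3 CPM in WT thymi, and Birc5 was at 1.02, 1.07, 0.888 and 0.857 CPM in Tol and 0.976, 1.03, 0.901 and 1.44 CPM in WT cerebra. Cdc6 followed with 0.87 ± 0.42, from 3 to 15 counts per cerebrum. Cenpa and Cdc20 had positive values in Tol thymus (0.32 and 0.23) and negative values in Tol cerebrum (-0.51 and -0.72), and no adjusted p under 0.05 in edgeR in either organ. Without Tol thymus 1, Cenpa was the 1 member called in the interaction (edgeR adjusted p = 0.0302), against 3.42% of 17937 genes called in the same direction, so that 1 of 38 is no more than the background.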

How the data were processed

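RNA of frozen tissues was made into stranded mRNA libraries and sequenced as single-end reads. The deposited values are estimated counts per gene, made by the authors with Salmon 0.14.1 from GRCm38 transcripts to which the Tol sequence had been joined, and were whole numbers as deposited. How transcripts were summed to genes and whether strand was used is not given in the sources used here. Total counts of 14543698 to 34776973 per library set the precision, and members with few counts in brain are imprecise. Genes were filtered with filterByExpr, scaled with TMM and tested with edgeR 4.0.16 (glmQLFit, glmQLFTest, Benjamini-Hochberg over all genes tested). Genotypes were compared within each organ, a comparison the study made with edgeR 3.9. Organs were also compared within each genotype, and an interaction term was fitted over thymus and cerebrum. Single members were tested with two-sided exact permutation tests on log2(CPM + 1). The labels do not state that replicates are separate animals, while the study states 4 mice per genotype. The p-values measure the spread between these samples. The edgeR test was tried on simulated counts for Tol against WT thymus, WT thymus against WT cerebrum and the interaction. Every simulated gene had the same spread, below that of these data. The check therefore does not cover the other comparisons or the real spread. CPM use TMM over all 22 libraries. Of 34585 entries, 34530 were in the annotation used for symbols and lengths (GENCODE on GRCm38). Kif20a, Ccna2, Mcm7 and Cdc45 also overlap exons of other genes on the opposite strand. Several members share sequence with pseudogenes, among them Mcm7, Cdc20, Pcna, Ccnb1, Uhrf1, Mybl2 and Plk1. The pseudogenes of Mcm7 and Mybl2 have no entry in the counts.

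The members and the other gene lists were chosen with earlier results of these data known. All 38 members may be named. Values of every library are given for the member of each role with the largest and the smallest change in an organ contrast, for the 5 lowest p of each genotype contrast and for Mki67, Top2a, Pcna, Ccnb1, Cdk1 and Mcm2. Of other cell cycle genes, the 2 largest changes per list and direction are eligible. Alternatives were DESeq2 1.42.0 and its size factors, no TMM, no filter, at least 10 counts in every library, robust fitting, thinned counts, a length and GC trend, a replicate block, a pseudocount of 0.1, other promoter windows and leaving out each library. Of the progenitor and neuroblast markers, 1 is not reported here.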

Additional observations from a re-analysis of the deposited data

Results flagged for a closer look

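In groups of 4 libraries, the highest and lowest library were compared with the next one by Dixon's ratio for the 38 members, their sum and the total count. Of 200 such groups 15 had a library beyond the critical value of 0.829, where chance gives about 1 in 20, or 10. In Tol thymus 3 the levels of Mcm5 (154 CPM, next 194), Mcm6 (246 CPM, next 283), Rrm2 (249 CPM, next 308), Ccnb1 (97.6 CPM, next 135.5) and Aurkb (55.8 CPM, next 75.9) lay far below the other 3 Tol thymi. In Tol thymus 1, Mki67 at 1168 CPM lay above the next library at 697 CPM.

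In the brain, with few counts per gene, the libraries were Tol cerebrum 2 for Mcm6 (4.49 CPM, next 6.94), WT cerebrum 2 for Ccnb1 (1.42 CPM, next 1.08) and for Kif20a (0.900 CPM, next 1.79), WT cerebellum 4 for Cdk1 (0.829 CPM, next 0.348) and E2f1 (1.44 CPM, next 3.74), and WT cerebellum 1 for Aurka (1.18 CPM, next 1.53). Total counts stood apart in Tol thymus 1 (34.8, next 20.5, in units of 1000000 counts), WT thymus 4 (29.1, next 17.9) and Tol cerebrum 4 (14.5, next 22.1). No member passed edgeR's interaction test between thymus and cerebrum with all libraries.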

How the results depend on the processing

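Counts of members called moved by over 1.5 times in few settings. For Tol cerebellum against Tol cerebrum, 5 higher became 8 with total count scaling only, and ranged from 2 to 9 with a library left out, while 4 lower ranged from 4 to 7, the highest value of each without Tol cerebellum 2. For Tol against WT thymus, 0 called became 4 higher with DESeq2 and 0 to 1 with a library left out, and for the interaction 1 with DESeq2 and 0 to 1 with a library left out, the call coming without Tol thymus 1 in both. The other 328 of 340 such counts stayed within 1.5 times. All-gene counts for thymus, 9 higher and 7 lower, became 665 and 602 with DESeq2 and 1589 and 1389 without Tol thymus 1.

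Signs turned for many members between genotypes. With a library left out, 15 of 38 turned in thymus, 16 of 34 in cerebrum and 19 of 36 in cerebellum, of which 15 without Tol cerebellum 2, and in the other settings 6, 8 and 7 did. In thymus Mki67 ranged from -0.210 without Tol thymus 1 to 0.129, Mcm2 from -0.0733 to 0.0947 and Top2a from -0.103 to 0.0947, the latter 2 highest without WT thymus 3. Mki67 became -0.00664 with the replicate block, and Mcm2 0.00197 and Top2a 0.0512 with the length and GC trend removed. In WT cerebellum against cerebrum Tpx2 became 0.0106 with total count scaling. In the Tol libraries Pcna became 0.125 with total count scaling and ranged from -0.134 to 0.0837 with a library left out, Mybl2 from -1.40 to 0.0942, Cdc6 from -0.481 to 0.00381 and Tpx2 from -0.0215 to 0.127, and Tpx2 became -0.0145 with the replicate block. In cerebellum, Ccne1 ranged from -0.193 without Tol cerebellum 2 to 0.625 without Tol cerebellum 1. The causes were not tested. Total count scaling moved the median of all genes between WT thymus and cerebrum from 0.06 to 0.47, and all 38 members stayed higher in thymus.

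Replicate numbers recur between groups, and whether they mark the same mouse is not stated. Within a genotype, most correlations between deviations of same-numbered libraries were small and above 0. They were 0.111, 0.00329, 0.0445 and 0.102 between WT cerebellum and cerebrum (other pairs up to 0.084). WT thymus and cerebrum had 0.0353, -0.00774, 0.0411 and 0.0571 (others up to 0.0678). WT thymus and cerebellum had 0.0314, 0.0548, 0.0186 and 0.0657 (others up to 0.0417). Tol thymus and cerebrum had 0.0279, 0.0764, 0.0347 and 0.0371 (others up to 0.118). The 2 Tol cerebella had -0.0912 and -0.157 with Tol cerebra. Pairing by mouse was not settled, and the main fits paired no libraries. With the replicate block, members higher in Tol cerebellum than Tol cerebrum went from 5 to 2, and the block moved no other count of members called by over 1.5 times. Depth limits the brain values, where Cdk1, Aurkb, Bub1 and Cdc6 had 0 to 19 counts per library.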
